A study of Mus musculus with 4 samples.

Results

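Cardiac muscle cells are the contractile cells of the embryonic heart. Here they were the 604 of 35228 kept cell barcodes that passed a rule on measured values in single-cell RNA sequencing of mouse pharyngeal tissue and heart at embryonic day 9.5 (E9.5). A barcode was kept when at least 3000 genes were detected and at most 10% of its UMIs, the molecule tags that count RNA copies, came from mitochondrial genes. A kept barcode was taken as a cardiac muscle cell when it held at least 3 UMIs of Tnnt2, when the 5 contractile genes Tnnt2, Myh7, Myl7, Myl4 and Actc1 together made up at least 0.25% of its UMIs, and when it held no UMI of Epcam, an epithelial marker, or Cdh5, an endothelial marker. Since these 5 genes, Epcam and Cdh5 chose the cells, their values are given below as a description and were not tested.

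The study asked how loss of Kmt2d acts in embryos that have a single working copy of Tbx1. By the labels, all 4 libraries came from outbred Swiss Webster embryos, while the study's methods describe its mice in general as a mix of C57BL/6 and Swiss Webster. All embryos carried Tbx1Cre/+, in which Cre is knocked into Tbx1 so that every embryo is heterozygous for Tbx1, and a Cre-activated GFP allele (GFP F/+) that labels cells once Cre has acted. The conditional heterozygotes (cHet) carried Kmt2d F/+ and the conditional knockouts (cKO) carried Kmt2d F/F, with 2 libraries each. GFP-positive cells that excluded the dead-cell dye DAPI were sorted from tissue reaching from the first pharyngeal arch to the heart. Each Rep1 library was made from a pool of 4 embryos with the Chromium Next GEM 3′ kit, while Rep2 libraries held 3 embryos each and were made with the newer GEM-X 3′ kit, so the replicate number also marks the kit. Embryos of a pool could not be told apart, so the library was the replicate and n = 2 per genotype. The study lists the range of somites, a measure of stage, for each pool. In Rep1 the cKO range lay within the cHet range, while in Rep2 it began at the top of the cHet range. Stage and genotype can therefore not be fully told apart in Rep2. Only the part of the heart that descends from Tbx1-expressing cells was sampled. The p-values rest on the spread between these pools alone. With so few libraries, that spread was estimated for each gene largely by sharing it over genes.

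Heart muscle at this stage is added to the heart tube from progenitors of the heart fields. Progenitors marked by the transcription factor Isl1 feed, among other parts, the outflow tract and right ventricle at the arterial end. Atrial and sinus venosus muscle, which includes the future pacemaker, is added at the inflow end, where Tbx5, Shox2 and Tbx18 act. Shox2 and Tbx18 are needed to build the sinus venosus and sinoatrial node, and Nkx2-5 is a core cardiac transcription factor that the pacemaker region largely lacks. KMT2D is an enzyme that adds methyl groups to lysine 4 of histone H3, mainly at enhancers.

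The 604 cells were 122 of 6238 kept barcodes in cHet Rep1, 41 of 6660 in cKO Rep1, 198 of 9743 in cHet Rep2 and 243 of 12587 in cKO Rep2. Their summed UMIs numbered 2380121, 1113275, 4936897 and 4942244 in that order, with medians per cell of 18324.5, 25060, 23275 and 19374 UMIs. The cKO Rep1 library therefore rests on the fewest cells and on the shallowest sum. The cHet Rep1 library stood apart in its barcodes, with 37093 in its matrix against 9307 to 16775 in the others. For the others the study's cell counts equal these barcodes, but for cHet Rep1 it lists fewer cells than the 6238 barcodes kept here. With 1000 rather than 3000 genes as the minimum the cardiac muscle cells of cHet Rep1 went from 122 to 538 of 22202 kept barcodes, while those of the other libraries became 43, 206 and 260. The 416 barcodes so added had a median of 3451.5 UMIs, and 98 of them held a UMI of Nkx2-5. How many of the added barcodes are intact cells was not tested. Libraries of different replicates shared no kept barcode, the libraries of Rep1 shared 12 and those of Rep2 shared 46, but none of these was a cardiac muscle cell in both. Without a test, 12 cells lay just inside the rule, with the 5 genes at 0.25% to 0.3% of UMIs, and 19 barcodes lay just outside at 0.2% to 0.25%. Another 9 cells held exactly 3 UMIs of Tnnt2, and 7 barcodes that met every other condition held 2.

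The label was checked against a marker that the rule had not used. Values are given first as CPM, the UMIs of a gene per 1000000 UMIs summed over the cells of a library, and in the order cHet Rep1, cKO Rep1, cHet Rep2, cKO Rep2. Nkx2-5 stood at 127, 148, 217 and 187 CPM, against 4.14 to 10.1 CPM in cells with at least 3 Epcam UMIs and at most 2.44 CPM in cells with at least 3 Cdh5 UMIs. A UMI of Nkx2-5 was found in 79.5%, 85.4%, 92.4% and 87.7% of the cardiac muscle cells. With every cell thinned to 5000 UMIs these shares were 45.9%, 56.1%, 59.1% and 55.6%, against 1.52% to 4.18% of the Epcam cells, whose median depth ran from 18740 to 25772 UMIs, and 0% to 1.85% of the Cdh5 cells, at 16738 to 29141.5 UMIs. Nkx2-5 was thus detected far more often in the cardiac muscle cells of every library than in the Epcam cells or the Cdh5 cells. This comparison covers those groups only and does not tell heart muscle from heart field progenitors.

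The genes that led the cells were those of the contractile machinery. Of the 20 genes with the highest fold over all other kept barcodes, counted on CPM + 5 and taken at the lowest of the 4 libraries, 5 were the genes of the rule. The other 15 were Myl3, Ttn, Tnnc1, Ankrd1, Csrp3, Hspb1, Myh6, Sh3bgr, Acta2, Cryab, Acta1, Trim55, Ryr2, Myl2 and Slc8a1. They include thick-filament and thin-filament proteins (Myh6, Myl2, Myl3, Acta1, Acta2, Tnnc1), the giant spring protein Ttn, Z-disc and stress-response proteins (Csrp3, Ankrd1, Cryab), the ubiquitin ligase Trim55, the calcium release channel Ryr2 and the sodium-calcium exchanger Slc8a1. Ttn stood at 4695, 3847, 11867 and 10339 CPM against 21.0, 11.3, 56.4 and 45.5 CPM in the rest. Ryr2 was at 966, 1106, 1134 and 1112 CPM, a narrower range. Since the cells were chosen on genes of the same program, these folds are descriptive.

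**Figure D1:**
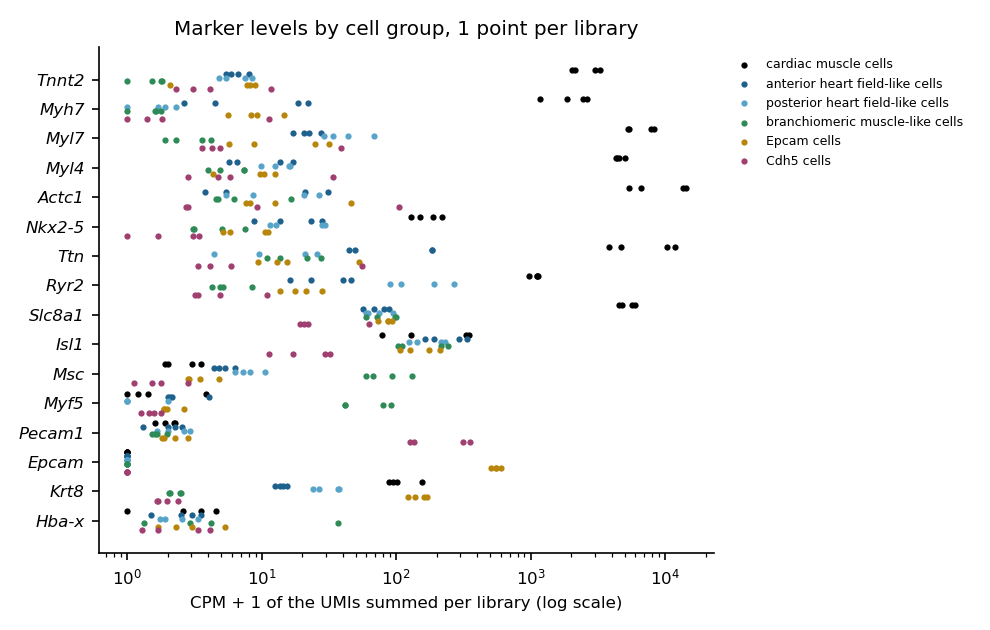
Level of 16 marker genes (rows) in 6 groups of cells, as CPM + 1 of UMIs summed per library on a log scale, with 1 point per library. The contractile genes and Nkx2-5 lie far to the right in the cardiac muscle cells (black), while Pecam1, Myf5, Msc and Hba-x stay below 4 CPM there.

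Markers of other cell types were low in the sums, with exceptions that the embryonic heart shares. Over 10 blood genes the summed level was 1.82 to 10.1 CPM, and over 10 epithelial genes 1.80 to 6.30 CPM, with 4 of each list at 0 in all libraries. The 12 endothelial and endocardial genes summed to 76.9 to 133 CPM with Pecam1 at 0.608 to 1.26 CPM, and the 13 genes of branchiomeric and skeletal muscle summed to 61.1 to 129 CPM with Msc at 0.898 to 2.52 CPM. The 5 neural crest genes reached 5.26 to 8.98 CPM. Krt8 and Krt18, keratins of simple epithelia that early heart muscle also makes, were well detected, at 87.1 to 154 CPM and 83.5 to 137 CPM. No cell had over 5% of its UMIs from hemoglobin genes, and 9, 2, 9 and 15 cells held a UMI of a defining gene of another type.

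The cells covered a wide range of contractile content. The median share of UMIs from the 5 genes was 1.65% in cHet Rep1, 2.84% in cKO Rep1, 2.53% in cHet Rep2 and 2.56% in cKO Rep2, and the highest cell reached 8.45%. Below 1% lay 39, 11, 45 and 65 cells, between 1% and 3% lay 50, 14, 71 and 71, and at 3% or more lay 33, 16, 82 and 107. The share of cells at 3% or more was therefore 27.0% in cHet Rep1 and 39.0%, 41.4% and 44.0% in the other libraries.

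**Figure D2:**
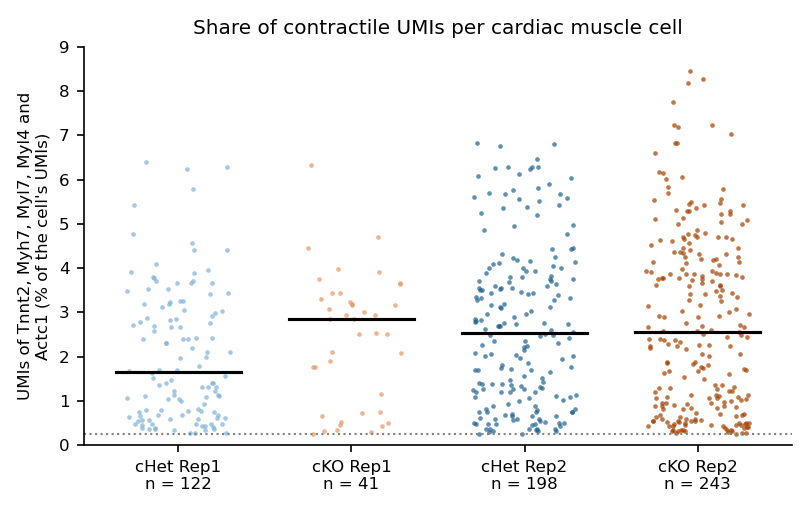
Share of each cardiac muscle cell's UMIs that came from Tnnt2, Myh7, Myl7, Myl4 and Actc1 (percent, vertical axis) in the 4 libraries, with 1 point per cell, a black line at the median and a dotted line at the 0.25% of the rule. The medians run from 1.65% to 2.84%, and every library holds cells from near the dotted line to above 6%.

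Genes of the contractile apparatus climbed along this range together, and progenitor genes went the other way. From the lowest to the middle to the highest band, 26 of 40 sarcomere genes rose at each step in all 4 libraries. In no library were 37 of the 40 lower in the highest than in the lowest band. These include Mybpc2 and Myom2, at 0 CPM in every band, and Xirp2, at 0 CPM in all bands of cKO Rep1. Myh6, the fast atrial-type myosin heavy chain, went from 113 to 669 to 1060 CPM in cHet Rep1 and from 53.0 to 565 to 1197 CPM in cKO Rep2. Nppa, the natriuretic peptide of working chamber muscle, was at 0 to 5.12 CPM in the lowest band and at 77.1 to 542 CPM in the highest. Of 37 genes for calcium and ion handling, 14 rose at each step in all 4 libraries.

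Of 22 heart field progenitor genes none rose at each step in all libraries, and 16 were higher in the lowest than in the highest band in all 4. Isl1 fell from 196 to 24.6 CPM between the lowest and the highest band of cHet Rep1, from 240 to 21.1 in cKO Rep1, from 686 to 149 in cHet Rep2 and from 614 to 145 in cKO Rep2. Hand2, a transcription factor of second heart field progenitors and ventricles, and Fn1, a matrix glycoprotein, fell in every library too, as did 7 of 24 extracellular matrix genes at each step. Shox2 was among the genes that fell at each step in all 4 libraries, but some of its steps were small. It went from 13.7 to 10.9 to 10.1 CPM in cHet Rep1 and from 7.95 to 4.63 to 4.54 CPM in cHet Rep2. These values rest on 27 UMIs in 9 cells and 26 UMIs in 8 cells. In cKO Rep1 it was 63.8 CPM in the middle and 63.4 CPM in the highest band. The bands were cut on the 5 genes of the rule and cells of a library are not replicates, so these values carry no test.

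The share of kept barcodes that were cardiac muscle cells was 1.96% in cHet Rep1 (exact 95% interval 1.63% to 2.33%), 0.616% in cKO Rep1 (0.442% to 0.834%), 2.03% in cHet Rep2 (1.76% to 2.33%) and 1.93% in cKO Rep2 (1.70% to 2.19%). The intervals cover counting error only. In Rep1 the cKO share lay below the cHet share, and in Rep2 the intervals of the genotypes overlapped, so the 2 replicates did not give the same picture. With 2 libraries against 2, the smallest 2-sided p of an exact permutation test is 0.333, so no test was made. The share in cKO Rep1 stayed the lowest of the 4 under each selection tried, from 0.511% to 0.781%. How far the dissection or the sort set these shares was not tested.

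To ask which genes differed between the genotypes, UMIs were summed over the cardiac muscle cells of each library and cKO was compared with cHet within replicates by edgeR's quasi-likelihood test, with Benjamini-Hochberg adjustment over all 11796 genes tested. Few genes passed the test. The median log2 fold change was -0.00, 73.0% of the genes lay within 0.25 on the log2 scale, and 3 genes (0.0254% of those tested) fell and 35 (0.297%) rose at an adjusted p under 0.05. All 38 genes moved the same way in Rep1 and Rep2. Both cKO libraries lay above both cHet libraries in 28 of the 35 genes that rose, against 9.1% of all genes tested, and below them in the 3 that fell, against 9.94% of all genes. In 28 of the 35 the change was larger in Rep1, the replicate with 41 cKO cells.

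These calls rest on all 4 libraries, on comparing within replicates and on the minimum of genes per barcode. With 1000 genes as that minimum, an alternative added after the data were seen, edgeR called 2 lower and 8 higher genes, all of them among the 38, and the 38 kept their direction. Of the inflow genes described next, Shox2 was called there (log2 fold change 2.85, edgeR adjusted p = 0.00144), while Tbx5, at 1.42, Wnt2, at 0.94, Vsnl1, at 1.36, Tbx18, at 1.24, and Nr2f2, at 0.39, were not. An unadjusted p under 0.05 was reached by 592 genes, 5.02% of those tested. Without the replicate block, edgeR called 0 genes, while 67 had an unadjusted p under 0.05. With the block, DESeq2 called 1 lower gene, Ptprt, and 5 higher genes, Rspo2, Sgcd, Shox2, Smoc2 and Tafa1, and 85 genes had an unadjusted p under 0.05. Leaving out a library, which also removes the block, gave 2 lower and 0 higher genes without cHet Rep1, 0 and 0 without cKO Rep1, 0 and 0 without cHet Rep2, and 0 and 1 without cKO Rep2. Of the 2 lower genes, 1 was among the 3 above, and the higher gene was among the 35. Such a fit assumes that the lone library of a genotype varies like the pair of the other.

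**Figure D3:**
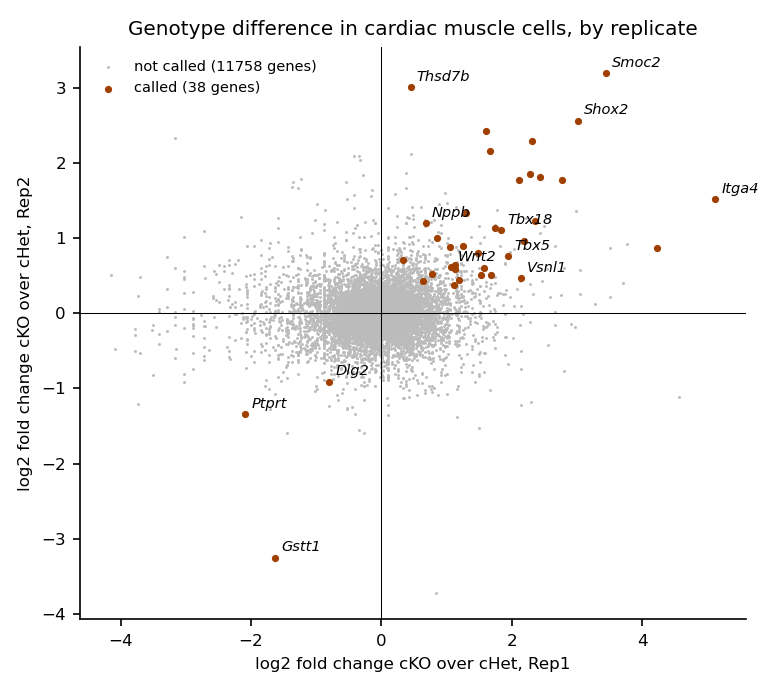
Log2 fold change of cKO over cHet in cardiac muscle cells in Rep1 (horizontal) and Rep2 (vertical), with 1 point per gene and the 5 genes of the rule left out. The 38 called genes (brown) lie away from 0 in the same direction in both replicates, with Shox2 and Smoc2 at upper right and Gstt1 and Ptprt at lower left.

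The genes that rose included a group that belongs to the inflow end of the heart. Of 18 tested genes of the atrium, inflow tract and atrioventricular canal, 6 rose: Shox2, Tbx18, Tbx5, Vsnl1, Wnt2 and Nr2f2. None fell. Over all tested genes 0.297% rose and 0.0254% fell. Another 4 were higher in both replicates without passing the test, which made 10 of the 18, and 2 were lower in both. Of all tested genes 25.9% were higher in both and 26.5% were lower in both. The median log2 fold change of the 18 was 0.52, 0.63 in Rep1 and 0.41 in Rep2, against -0.00 over all genes. The list and this comparison were chosen with earlier results of these data known. From here, CPM were scaled by TMM, which corrects for differences in composition between libraries, and libraries are given in the order cHet Rep1, cKO Rep1, cHet Rep2, cKO Rep2.

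Shox2 (chr3:66971727-66981771, minus strand, in the GRCm38 or mm10 assembly with GENCODE vM21, used for all positions here), the homeobox factor of the sinus venosus and sinoatrial node, had the smallest p of all genes. It stood at 12.4, 104, 4.80 and 31.2 CPM, from 27, 105, 26 and 166 UMIs. Both cKO libraries lay above both cHet libraries, and the log2 fold change was 2.88 (SE 0.22, edgeR adjusted p = 1.5e-06). In such sums more cells that make a gene and more RNA per cell cannot be told apart, so cells were counted as well, below. Tbx18 (chr9:87702800-87731260, minus), a T-box factor of sinus horn muscle and of the epicardium, stood at 12.8, 47.6, 4.06 and 9.39 CPM. It rose by 1.56 on the log2 scale over both replicates (SE 0.31, edgeR adjusted p = 0.0302), with 1.84 in Rep1 and 1.104 in Rep2, but cKO Rep2 lay below cHet Rep1, so the groups overlapped, and it turned to -0.74 when only cells with 1% or more of their UMIs from the 5 genes were used, an alternative added after the data were seen.

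Tbx5 (chr5:119832668-119885219, plus), the T-box factor of the inflow tract, atria and left ventricle, stood at 21.6, 84.3, 21.0 and 36.1 CPM. The cHet libraries were nearly equal and both cKO libraries lay above them, with a log2 fold change of 1.23 (SE 0.22, edgeR adjusted p = 0.0128). Nr2f2 (chr7:70351944-70366735, minus), the orphan nuclear receptor of atrial identity, stood at 111, 190, 87.3 and 126 CPM and rose by 0.64 on the log2 scale (SE 0.12, edgeR adjusted p = 0.0254). Wnt2 (chr6:17988940-18030585, minus), a secreted signal made at the inflow end, stood at 61.9, 131, 69.2 and 106 CPM and rose by 0.79 (SE 0.14, edgeR adjusted p = 0.0122). For Nr2f2 and Wnt2, as for Tbx5, the genotypes did not overlap.

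Vsnl1 (chr12:11325242-11436613, minus), which encodes a calcium sensor found in the sinoatrial node, stood at 35.3, 158, 39.5 and 54.8 CPM. Its log2 fold change of 1.16 (SE 0.24, edgeR adjusted p = 0.0493) came largely from Rep1, with 2.14 there and 0.47 in Rep2. Both cKO libraries lay above both cHet libraries. Hcn4, the main pacemaker channel of the heart, had 11.5, 37.7, 21.0 and 26.7 CPM and did not pass the test (log2 fold change 0.75, SE 0.26, edgeR adjusted p = 0.613).

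The other genes of the list did not pass. Angpt1, an endothelial growth factor made by atrial muscle, was at 178, 431, 243 and 258 CPM (log2 fold change 0.62, SE 0.18, edgeR adjusted p = 0.352). Nr2f1, the close relative of Nr2f2, had a log2 fold change of 0.53, with 0.49 in Rep1 and 0.55 in Rep2. Over the alternative settings that gave a value, Shox2 was called in 12 of 13, Tbx5 and Nr2f2 in 8 of 14, and Wnt2, Vsnl1 and Tbx18 in 7 of 14. Genes of the atrioventricular canal had no common sign, with log2 fold changes of -0.64 for Tbx2, 0.21 for Tbx3, 0.20 for Msx2 and -0.01 for Bmp2.

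**Figure D4:**
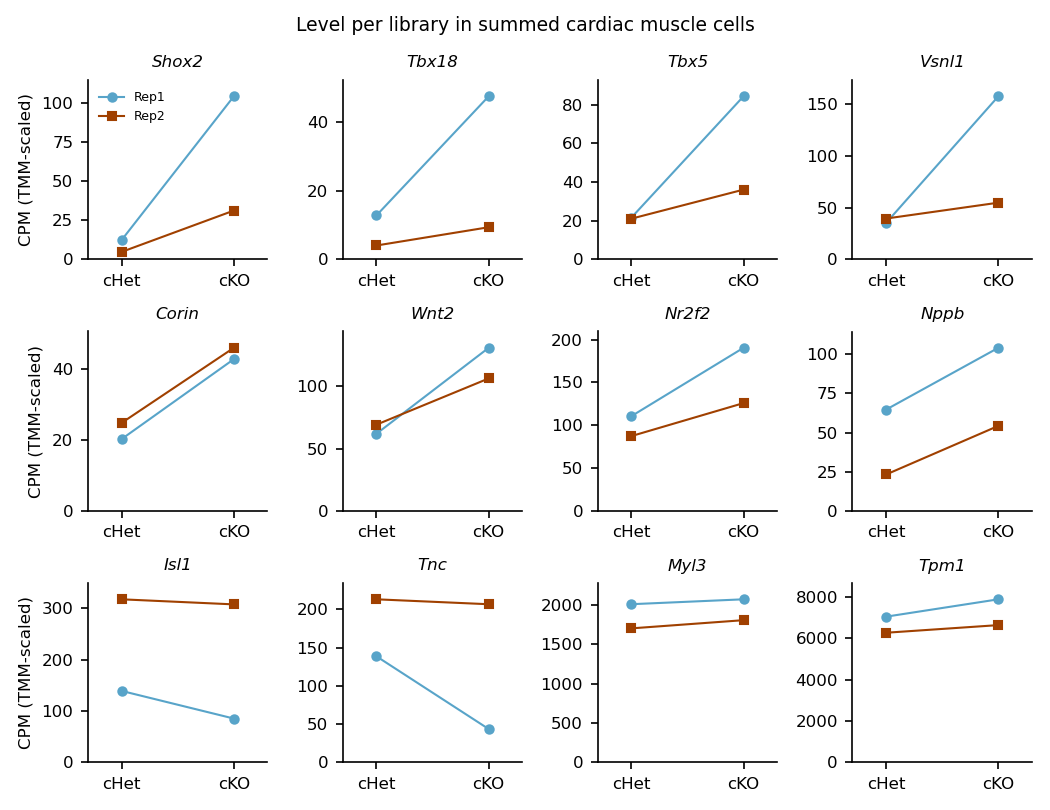
TMM-scaled CPM (vertical axis, from 0) of 12 genes in the summed cardiac muscle cells of cHet and cKO, with a line joining the libraries of each replicate. Shox2, Tbx18, Tbx5, Vsnl1, Corin, Wnt2, Nr2f2 and Nppb climb from cHet to cKO in both replicates, while Isl1 and Tnc are lower mainly in Rep1 and Myl3 and Tpm1 stay nearly level.

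Counted by cells, Shox2 was detected in 9 of 122 cells in cHet Rep1 (7.38%, exact 95% interval 3.43% to 13.5%), in 11 of 41 in cKO Rep1 (26.8%, 14.2% to 42.9%), in 8 of 198 in cHet Rep2 (4.04%, 1.76% to 7.81%) and in 22 of 243 in cKO Rep2 (9.05%, 5.76% to 13.4%). With cells thinned to 5000 UMIs the shares were 4.10%, 22.0%, 2.02% and 7.82%. Shox2 was thus found in a larger share of the cKO cells in both replicates, with intervals that overlapped in Rep2. With the minimum of 1000 genes it was found in 20 of 538 barcodes that met the rule in cHet Rep1 (3.72%), 11 of 43 in cKO Rep1 (25.6%), 10 of 206 in cHet Rep2 (4.85%) and 22 of 260 in cKO Rep2 (8.46%). In the Epcam cells, some of which also express Shox2, the thinned share was 3.58% to 7.14%, and in the Cdh5 cells, which mark the level of free RNA, it was 0% to 0.295%. The other called inflow genes but Tbx5, given below, were counted too, before and then after thinning. Vsnl1 was found in 13.1%, 36.6%, 13.6% and 15.6%, then 7.38%, 34.1%, 10.6% and 12.3%. Wnt2 had 38.5%, 63.4%, 32.3% and 37.9%, then 19.7%, 43.9%, 17.2% and 23.5%. Nr2f2 had 39.3%, 46.3%, 24.2% and 24.7%, then 28.7%, 36.6%, 13.6% and 18.5%. Tbx18 had 13.1%, 14.6%, 3.54% and 4.12%, from 16, 6, 7 and 10 cells, then 7.38%, 12.2%, 0.505% and 2.06%.

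Set against all kept barcodes, cardiac muscle cells with a Shox2 UMI made up 0.144%, 0.165%, 0.0821% and 0.175%. The cardiac muscle cells without a Shox2 UMI made up 1.81%, 0.450%, 1.95% and 1.76%. In Rep1 the 2 genotypes therefore differed mainly in the cells without Shox2, which numbered 113 in cHet and 30 in cKO, whereas in Rep2 the cells with Shox2 were 8 in cHet and 22 in cKO.

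Cells with Shox2 held the other genes of the group more often than cells without it, though most cells with Wnt2, Tbx5 or Tbx18 held no Shox2. Pooled over the libraries, 50 cells held a Shox2 UMI and 554 did not. Vsnl1 was detected in 82.0% of the 50 and 9.93% of the 554, Nr2f2 in 94.0% and 23.1%, Wnt2 in 88.0% and 33.4%, Tbx5 in 72.0% and 18.6%, Hcn4 in 66.0% and 20.6%, and Tbx18 in 26.0% and 4.69%. By number these were 44 and 185 cells for Wnt2, 36 and 103 for Tbx5, and 13 and 26 for Tbx18. After thinning to 5000 UMIs the shares were 74.0% and 6.68% for Vsnl1 and 44.0% and 7.22% for Tbx5. Among thinned Epcam and Cdh5 cells a UMI was found in at most 1.40% for Vsnl1, 1.09% for Wnt2, 0.935% for Hcn4 and 3.61% for Tbx18, but in 53.2% to 65.7% for Nr2f2, which other cell types also express, so Nr2f2 does not set these cells apart from the rest of the tissue. The cells with Shox2 had median depths of 14967, 21275, 23979 and 16717 UMIs in the 4 libraries and the others 18867, 27848, 23275 and 19670, so in 3 libraries they were the shallower cells.

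Some genes of other heart regions were detected less often in the cells with Shox2. Myl2, the ventricular regulatory light chain, was detected in 16.0% of the cells with Shox2 and 55.4% of those without, and Hand1, a left ventricular factor, in 14.0% and 43.1%. After thinning these were 4.00% and 42.4% for Myl2 and 8.00% and 22.4% for Hand1. Nkx2-5 was found in 68.0% and 89.2%, Sema3c, an outflow tract guidance signal, in 52.0% and 77.4%, and Isl1 in 54.0% and 67.0%. These genes were thus present in most cells of either kind before thinning. Myh7, 1 of the 5 genes of the rule, was detected in 18 of the 50 and in 94.9% of the 554, while Myl7, Myl4, Actc1 and Tnnt2 were found in nearly all cells of either kind. The median share of UMIs from the 5 genes was 0.808%, 1.16%, 1.26% and 0.618% in the cells with Shox2 and 1.80%, 2.93%, 2.61% and 2.90% in those without. Myl2 was also low in the lowest band of contractile content as a whole, at 174, 7.16, 8.94 and 4.68 CPM, against 85.7, 7.47, 4.98 and 63.5 CPM in the cells with Shox2, and the part of contractile content in these differences was not tested.

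**Figure D5:**
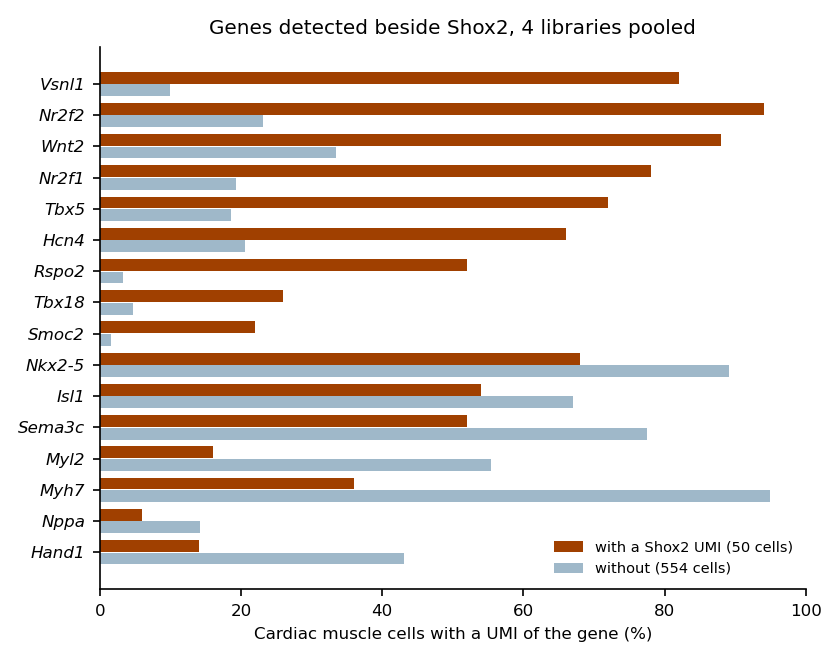
Percent of cardiac muscle cells with a UMI of each of 16 genes (horizontal axis, from 0), for the 50 cells with a Shox2 UMI (brown) and the 554 without (grey), pooled over 4 libraries. Inflow genes such as Vsnl1, Wnt2 and Nr2f2 exceed 80% in the former, while Myl2 and Myh7 are found mostly in the latter.

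Within the cells that held Shox2, levels of Vsnl1 and Tbx5 differed less between the genotypes than in the sums over all cells. On plain CPM, Vsnl1 stood there at 273, 482, 369 and 468, and Tbx5 at 140, 176, 174 and 195. In the cells without Shox2, Vsnl1 stood at 18.7, 35.5, 29.6 and 20.6 CPM and Tbx5 at 12.9, 44.9, 16.7 and 24.1 CPM. Tbx5 was therefore higher in cKO in each replicate on both sides of this split, and Vsnl1 in the cells without Shox2 was higher in cKO in Rep1 and lower in Rep2. These cells were selected on a gene of the result, so the values are descriptive.

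Without the 50 cells the same fit called 9 lower and 23 higher genes, an alternative added after the data were seen. Of the 35 genes that had risen, 31 still had enough UMIs for a value, 26 of these kept their direction, and 7 were called again, among them AA465934, Nppb, Spock3, Tafa1, Tbx5 and Tecrl. The median log2 fold change of the 31 went from 1.11 to 0.37. Tbx5 kept a log2 fold change of 1.04 (edgeR adjusted p = 0.0235, range over all alternatives 2.5e-08 to 1), whereas Tbx18 turned to -0.70 and Vsnl1 to -0.0030. Wnt2 went to 0.36 and Nr2f2 to 0.11, and neither was called. Gstt1, Ptprt and Dlg2, the genes that fell, were called again.

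Cells with a UMI of both Tbx5 and Isl1 were fewer in every library than cells with a UMI of either gene alone. A gene without a UMI in a cell may still be expressed there, so these counts do not show separate cells. A UMI of Tbx5 was found in 21.3%, 53.7%, 16.7% and 23.9% of the cells, or 8.20%, 26.8%, 7.07% and 11.1% after thinning, against at most 0.380% of thinned Epcam cells and 0.403% of thinned Cdh5 cells. Isl1 was found in 43.4%, 31.7%, 79.8% and 71.6%, or 28.7%, 17.1%, 59.1% and 57.6% after thinning. Cells with Tbx5 but no Isl1 numbered 20, 18, 19 and 40, cells with Isl1 but no Tbx5 47, 9, 144 and 156, and cells with both 6, 4, 14 and 18. The share with Tbx5 alone was higher and the share with Isl1 alone lower in cKO than in cHet, at 43.9% against 16.4% and 22.0% against 38.5% in Rep1, and at 16.5% against 9.60% and 64.2% against 72.7% in Rep2. These joint counts were not thinned, and the cKO cells were deeper than the cHet cells in Rep1 and shallower in Rep2, where Isl1 was nearly level after thinning. Isl1 in the sums, at 139, 85.3, 317 and 307 TMM-scaled CPM, did not pass the test (log2 fold change -0.27, SE 0.13, edgeR adjusted p = 0.997).

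The other genes that rose belonged to no single list, and several were counted in few cells. Of 24 tested genes on the list of adhesion and junctions none rose and 1, Dlg2, fell. That list leaves out adhesion molecules that did rise, such as Itga4, Pcdh17, Pcdh11x, Flrt2 and Flrt3, given below. Smoc2 (chr17:14279506-14404790, plus), a matricellular protein, rose by 3.78 on the log2 scale (SE 0.42, edgeR adjusted p = 0.000179) from 2.75, 35.7, 0.738 and 11.5 CPM, which were 6, 36, 4 and 61 UMIs in 3, 5, 2 and 10 cells. Rspo2 (chr15:43020794-43170826, minus), a secreted enhancer of Wnt signalling, stood at 16.1, 84.3, 17.5 and 41.7 CPM and rose by 1.66 (SE 0.22, edgeR adjusted p = 0.000722). In both genes the cKO libraries lay above the cHet libraries, although cells that also held Shox2 gave 88.9% of the Smoc2 UMIs of cKO Rep1 and 93.4% of those of cKO Rep2, and 89.4% and 77.0% of the Rspo2 UMIs. In thinned Epcam cells a UMI was found in 2.28% to 9.19% for Smoc2 and in 9.90% to 11.4% for Rspo2, shares above those of the cardiac muscle cells in 3 libraries for each gene, and in thinned Cdh5 cells in at most 0.295% and 0.426%.

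Among the other genes called, the Slit receptor Robo2 rose by 0.85, the fibronectin-leucine-rich transmembrane proteins Flrt2 and Flrt3 by 0.78 and 0.96, the teneurin Tenm3 by 0.72, the protocadherins Pcdh17 and Pcdh11x by 2.19 and 2.13, and the complement-control protein Csmd1 by 2.56 on the log2 scale. Corin, the protease that activates natriuretic peptides, rose by 0.95, from 20.2 to 42.6 CPM in Rep1 and from 24.7 to 45.8 CPM in Rep2, and Tecrl, an enoyl reductase-like protein tied to inherited arrhythmia, by 0.86. The metalloprotease Adamts6 rose by 0.93 and the neuron navigator Nav3 by 1.53. Sgcd, the delta subunit of the sarcoglycan complex of striated muscle, stood at 77.5, 185, 79.0 and 148 CPM and rose by 1.05 (SE 0.13, edgeR adjusted p = 0.000455). Most of these values were smaller without the cells with Shox2, with log2 fold changes of 0.20 for Robo2, 0.12 for Flrt2, 0.13 for Flrt3, -0.026 for Tenm3, 0.38 for Corin, 0.38 for Adamts6, 0.12 for Nav3 and 0.29 for Sgcd. In that alternative Pcdh17 had 0.79, Pcdh11x 1.298 and Tecrl 0.66, and of the genes in this paragraph Tecrl alone was called again. Sgcd is outside the rule for naming genes and was chosen after its values were seen.

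A few cells carried the counts of some of these genes. In 6 of the 35 a single cell gave more than 50% of the UMIs of a cKO library: 44 of 57 UMIs of the secreted protein Tafa1 and 44 of 52 of the integrin Itga4 in cKO Rep1, 23 of 35 of Pcdh11x and 7 of 13 of the potassium channel Kcnh5 in cKO Rep1, and 56 of 108 of the neuronal tubulin Tubb3 and 55 of 85 of Thsd7b in cKO Rep2. In 9 of the 38 called genes fewer than 20 cells had a UMI in every library. With the highest cell of each library left out, all 38 genes kept their direction in both replicates. The log2 fold change of Tubb3, 2.54 over all cells, was 0.037 without the cells above the 95th percentile of UMIs (edgeR adjusted p = 1) and 0.11 without the cells with Shox2 (edgeR adjusted p = 0.999), and its adjusted p over all alternatives ran from 1.2e-07 to 1. Over 10 neuronal genes the summed level was 12.6, 15.3, 12.8 and 86.6 CPM, highest in cKO Rep2, and the part of such cells in the calls for Tubb3, the reticulon Rtn1 (log2 fold change 2.01) and Spock3 (1.96) was not tested.

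Chamber muscle genes gave 1 call. Nppb (chr4:147985788-147987205, plus), the B-type natriuretic peptide of ventricular muscle, stood at 64.7, 104, 23.3 and 54.3 CPM. It rose by 0.98 on the log2 scale over both replicates (SE 0.16, edgeR adjusted p = 0.0079), with 0.68 in Rep1 and 1.20 in Rep2, although cKO Rep2 lay below cHet Rep1, which carried 78 of its 141 UMIs in a single cell. The median log2 fold change of 15 tested ventricular genes was 0.12. Myl2 stood at 1162, 1340, 218 and 331 CPM (log2 fold change 0.40, edgeR adjusted p = 0.296), and Nppa at 261, 329, 70.9 and 38.7 CPM, higher in cKO in Rep1 and lower in Rep2. Myl2 and Nppa differed between the replicates more than between the genotypes.

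Of 3 genes that fell, Gstt1 (chr10:75783813-75798584, minus), a theta-class glutathione transferase, had 16, 2, 230 and 21 UMIs, or 7.34, 1.98, 42.5 and 3.94 CPM. It fell by 3.29 on the log2 scale (SE 0.33, edgeR adjusted p = 7.0e-05), and the difference in Rep2 rests on 104 cHet cells and 20 cKO cells with a UMI, while that in Rep1 rests on 12 and 1. None of the other 19 tested genes of glutathione and redox metabolism was called, with Prdx1 at 0.04 and Gpx4 at 0.07 on the log2 scale. Ptprt (chr2:161521990-162661147, minus), a receptor tyrosine phosphatase, had 105, 11, 576 and 221 UMIs, or 48.2, 10.9, 106 and 41.5 CPM, and fell by 1.49 (SE 0.17, edgeR adjusted p = 0.000259). Dlg2 (chr7:90476672-92449247, plus), a scaffold protein of the membrane-associated guanylate kinase family, stood at 200, 114, 228 and 121 CPM. It fell by 0.87 (SE 0.12, edgeR adjusted p = 0.000722), the only call among the 24 tested genes on the list of adhesion and junctions. Both cKO libraries lay below both cHet libraries in all 3 genes.

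The contractile apparatus itself showed no called change. None of 35 tested sarcomere genes passed, with a median log2 fold change of -0.01. Ttn stood at 5126, 4247, 10814 and 9597 CPM and did not pass (log2 fold change -0.22, SE 0.10, edgeR adjusted p = 0.91), and Tpm1, Myl3 and Tnnc1 had 0.12, 0.07 and 0.09. For Ttn and Tnnc1 the replicates differed more than the genotypes. Ttn was higher in both Rep2 libraries and Tnnc1, at 2254, 2400, 950 and 1004 CPM, in both Rep1 libraries. The kit cannot be told apart from the other differences between the replicates. Of 34 tested genes for calcium and ion handling 1 rose, against 0.297% of all tested genes, and none fell. Their median was 0.06, with Slc8a1 at -0.06, Cacnb2 at -0.20, Ryr2 at 0.10 and Cacna1c at -0.13 on the log2 scale. Of 12 tested smooth muscle genes none was called (median -0.11), with Acta2 at -0.02, Tagln at 0.01, Myl9 at -0.00 and Cald1 at -0.06. The 5 genes of the rule had log2 fold changes from -0.36 to 0.21, given without a test.

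Of 33 tested cardiac transcription factors 4 rose, namely Shox2, Tbx5, Nr2f2 and Zfpm2, against 0.297% of all tested genes, and the median was -0.07. Shox2, Tbx5 and Nr2f2 were already counted in the inflow list above. Zfpm2, the GATA cofactor also known as FOG2, stood at 190, 296, 159 and 214 CPM and rose by 0.52 on the log2 scale (SE 0.11, edgeR adjusted p = 0.0493). The factors with the highest levels did not pass: Myocd at -0.15, Mef2c at -0.00, Tead1 at -0.11 and Smyd1 at -0.26. Nkx2-5 had a log2 fold change of -0.02 (SE 0.12). Foxp2, a forkhead factor of the mesenchyme list, rose by 0.56, and the other call of the 10 tested mesenchyme genes (median 0.45) was Tbx18, which was also the only call among 6 tested proepicardial genes (median 0.55). The 8 proepicardial genes summed to 39.1, 119, 64.6 and 67.4 CPM, highest in cKO Rep1, where Tbx18 was highest too, and their part in its change was not tested.

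No gene of the heart field progenitor or outflow tract lists was called. Of 20 tested progenitor genes, 12 were lower in cKO in both replicates (26.5% of all tested genes) and 1 was higher in both (25.9% of all), with a median log2 fold change of -0.27, -0.72 in Rep1 and -0.05 in Rep2. Isl1 is given above, and Hand2 had -0.14, Wnt5a -0.47 and Fgf8 -0.36. An unadjusted p under 0.05 was reached by 6 of the 20, against 5.02% of all tested genes. Among the 6 were Nrg1 and Osr1, which had positive log2 fold changes of 1.22 and 0.74. Of 16 outflow tract genes the median was -0.16, with -0.56 in Rep1 and 0.08 in Rep2. Nrp2, a receptor for semaphorins, was at 290, 89.2, 542 and 521 CPM, Sema3c at 156, 67.4, 331 and 341 CPM and the matrix protein Tnc at 139, 43.6, 213 and 207 CPM. In all 3 genes the library labelled cKO Rep1 stood apart and the Rep2 libraries were close to each other. Vcan, the proteoglycan of cardiac jelly, had -0.22 and Tgfb2 had 0.17.

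Signalling and metabolic lists held few calls. None of 23 tested genes of BMP signalling (median -0.03) passed, with Id1 at -0.30, Id2 at 0.09, Id3 at -0.18 and Bambi, a BMP pseudoreceptor, at 0.46 (edgeR adjusted p = 0.107). Of 32 genes of growth factor signalling (median -0.03) only Wnt2 was called, with the neuregulin receptor Erbb4 at 0.25 and Igf2 at 0.25. Of 21 extracellular matrix genes (median -0.12) 0 were called, with Sparc at -0.02 and Fn1 at -0.15, and 10 were lower in both replicates, against 26.5% of all tested genes. Glycolysis (21 genes, median 0.10), hypoxia (14, 0.16), fatty acid and creatine metabolism (20, 0.04) and S phase (43, 0.02) had no call either. None of 54 G2/M phase genes was called, with 32 lower and 4 higher in cKO in both replicates and a median of -0.14, with -0.25 in Rep1 and -0.10 in Rep2. Of the 54, 12 had an unadjusted p under 0.05, against 5.02% of all tested genes. Ribosomal proteins had a median of 0.12 with 60 of 79 higher in both replicates and none lower in both, and nuclear-encoded genes of oxidative phosphorylation 0.15 with 63 of 78, against 0.04 for the 13 encoded in mitochondria, all without a call. Of all tested genes 25.9% were higher in both replicates.

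Kmt2d itself was seldom counted, at 18.8, 17.8, 20.9 and 16.5 CPM from 41, 18, 113 and 88 UMIs, and did not pass the test (log2 fold change -0.26, SE 0.24, edgeR adjusted p = 1). The kits read RNA from its 3′ end, so these counts need not cover the deleted part of the gene and do not check the genotype. Of the 9 tested genes of the KMT2D complex none was called (median 0.02), with its paralog Kmt2c at 0.02 and Kdm6a at -0.13. Tbx1, of which all embryos carried a single working copy, was at 25.2, 6.94, 7.57 and 11.5 CPM, without a common direction in the 2 replicates.

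Whether the genotype acted otherwise in heart muscle than in its progenitors was asked with an interaction term against 1136 anterior heart field-like cells, which held a UMI of each of Tbx1, Isl1 and Hand2, fewer than 3 of Tnnt2 and none of Epcam or Cdh5. The effect differed in 4 of 11793 genes (0.0339%, edgeR with Benjamini-Hochberg adjustment), with 565 at an unadjusted p under 0.05 and 0 called by DESeq2. They were Smoc2, Tubb3, Tafa1 and Sgcd, each with an adjusted p of 0.0470 in edgeR. Sgcd had a log2 fold change of 1.05 in cardiac muscle cells and -0.07 in the field cells, a difference of 1.12 in the joint fit (SE 0.13), and Smoc2 had 3.78 and 0.11, a difference of 3.65 (SE 0.41). For Shox2, with 2.88 and 0.29, the difference of 2.62 (SE 0.32) missed the threshold (edgeR adjusted p = 0.0583), as did that of -1.65 for Ptprt (edgeR adjusted p = 0.120). With the cardiac muscle cells held to 0.5% of UMIs from the 5 genes the count was 13, and against 666 posterior heart field-like cells it was 39.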

How the data were processed

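The authors deposited raw UMI counts per gene and barcode for 4 libraries, made with Cell Ranger against mm10. The submitters' processing notes name version 8.0.1, and the matrix headers 7.0.1 for Rep1 and 8.0.1 for Rep2. These deposited counts were not corrected for free RNA. All other values were computed here. UMIs of the 604 cells were summed per library (1113275 to 4942244 UMIs), filtered with filterByExpr (11801 genes, 11796 tested without the 5 genes of the rule), scaled by TMM and tested with edgeR 4.0.16 (quasi-likelihood, replicate as block, Benjamini-Hochberg adjusted p under 0.05) in R 4.3.3. DESeq2 1.42.0 was an alternative. Replicate numbers mark kits, and same-numbered libraries deviated together (r = 0.635 over genes), so the block was kept. Exact intervals are Clopper-Pearson at 95%. Cells were thinned with numpy 2.4.6. The other alternatives changed the scaling, the gene filter, the selection of cells or the libraries used. No doublets were called. Instead, cells with Epcam or Cdh5 were left out, and cells of high UMI counts or with genes of other types were left out in alternatives. Epcam cells and Cdh5 cells, used as a background, held at least 3 UMIs of that gene.

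The cells and gene lists were chosen with earlier results of these data known. Genes named are the 15 largest and 15 smallest log2 fold changes among the 38 called, and for each list the called genes and the 4 of highest CPM, any others having been chosen after their values were seen. Cell cycle lists are those of Seurat 5.3.0. The test was also run on simulated counts for the genotype comparison (11801 genes). It found 94 of 100 genes changed by 1 on the log2 scale and 100 of 100 changed by 2, with 8 false calls. In the real fit 1.36% of the tested genes had a change past 1 in either direction, while 38 genes were called at any size of change. A gene that was not called can therefore not be taken as changed by less than 1. The values of 1 called gene are not reported here.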

Additional observations from a re-analysis of the deposited data

Results flagged for a closer look

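The effect of the genotype differed between cardiac muscle cells and anterior heart field-like cells in 4 genes by edgeR's interaction term. The differences on the log2 scale, cardiac minus field, were 3.91 for Tubb3, 3.65 for Smoc2, 2.52 for Tafa1 and 1.12 for Sgcd, each with an edgeR adjusted p of 0.0470 and 2 libraries per genotype. In each gene cKO was above cHet in both replicates of the cardiac muscle cells. In Tubb3 and Tafa1 a single cell gave more than 50% of the UMIs of a cKO library. The log2 fold change of Tubb3 in cardiac muscle cells went from 2.54 to 0.037 without the cells above the 95th percentile of UMIs and to 0.11 without the cells with Shox2, and that of Sgcd from 1.05 to 0.29 without the cells with Shox2. The interaction was not refitted without these cells. DESeq2 called 0 genes by the same term. Groups of 2 libraries are too small for a check of single libraries that stand apart.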

How the results depend on the processing

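All 38 called genes kept their direction under every planned change of scaling, filter, test or cells that gave a value, while the number of calls moved widely. The counts of lower and higher genes were 8 and 51 with RLE scaling, 1 and 5 with DESeq2, 19 and 86 with every gene of at least 1 UMI, and 7 and 46 with the looser selection of cells. They were 3 and 13 with the 5 genes at 0.5% of UMIs or more, 3 and 14 after thinning, 20 and 64 without the cells of highest UMI counts, and 21 and 82 without cells holding a gene of another type. Chosen after the data were seen, 1% or more gave 3 and 7, leaving out the cells with Shox2 gave 9 and 23, and a minimum of 1000 genes per barcode gave 2 and 8. Leaving out a library gave 0 to 2 lower and 0 to 1 higher genes. Without the replicate block the counts were 0 and 0. The estimated prior degrees of freedom of edgeR were 16.7 in the reported comparison, 3.51 without the block and infinite in the alternatives with every gene, without the cells of highest UMI counts, without cells holding a gene of another type, after thinning and without the cells with Shox2, so these counts also reflect how the spread was shared over genes. Directions reversed only in 2 of the alternatives added later. Without the cells with Shox2 the log2 fold change was -0.20 for Nfia, -0.026 for Tenm3, -0.70 for Tbx18, -0.0030 for Vsnl1 and -0.017 for Rtn1. At 1% or more it was -0.74 for Tbx18, -0.011 for Nav3 and -0.39 for Lsamp. The interaction count was 0 with DESeq2, 13 with the stricter and 39 with the posterior field cells. The share of cardiac muscle cells was 2.42% (538 of 22202) in cHet Rep1 with 1000 genes per barcode, from 1.96% (122 of 6238), 2.34% in cHet Rep2 and 2.25% in cKO Rep2 with the looser rule, and 1.68% in cKO Rep2 with the stricter rule. The 41 cells of cKO Rep1 limit every value that compares the genotypes in Rep1.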
